A study of Arabidopsis thaliana with 6 samples.

Results

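Transcripts of 9 genes of iron homeostasis were followed in whole Arabidopsis thaliana seedlings of a mutant given as 17ab and of wild type (WT). The 9 genes were taken by their identifiers, out of 23022 genes listed in at least 1 library: the ferritin genes FER1, FER3 and FER4, the 4 subgroup Ib basic helix-loop-helix genes bHLH38, bHLH39, bHLH100 and bHLH101, the ubiquitin ligase gene BTS and the nicotianamine synthase gene NAS4. Polyadenylated RNA was sequenced from 3 libraries of 17ab and 3 libraries of WT, made from seedlings raised for 10 days on upright plates of 1/2 MS medium with no stress treatment named, and seedlings close in size were taken. The title places the work in the unfolded protein response, and the labels leave the genes mutated in 17ab unnamed. As a check of the label, transcripts of 3 sensors of endoplasmic reticulum stress were lower in 17ab libraries, with log2 fold changes of -2.43 ± 0.14 for bZIP17, -1.68 ± 0.11 for IRE1A and -0.74 ± 0.12 for IRE1B (SE, n = 3 each, edgeR adjusted p = 1.221e-06, 2.982e-06 and 0.001345). Expected counts summed to between 6261789 and 6292461 in the 17ab libraries and between 5968854 and 6198230 in the WT libraries. No label ties the libraries to separate plates or cultures, and the p-values therefore cover only the spread among these 6 libraries, which may be technical. RNA came from whole seedlings, in which fewer cells of a type and less RNA per cell cannot be told apart.

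Plants hold iron within narrow limits, because free iron catalyses the formation of reactive oxygen species. Ferritins store it in plastids, and their genes are known to be induced by iron excess. The subgroup Ib factors are induced by iron deficiency in roots and leaves and act in roots with the factor FIT, which switches on the iron reductase FRO2 and the iron transporter IRT1. BTS, also induced by iron deficiency, marks the factors ILR3 and bHLH115, which act above the Ib genes, for degradation. FER1 is also known as a target of PHR1, the main regulator of the phosphate starvation response.

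The sequence upstream of the 9 genes is shown as a description, since the known regulators of iron genes include factors that bind the G-box. Each stretch runs from base -130 to base -61 before the annotated start of the gene, 5′ to 3′ on the strand of the gene, from the RefSeq genome TAIR10.1. Capitals mark the G-box (CACGTG, which reads the same on both strands).
FER1, chr5:230112-230181, minus strand: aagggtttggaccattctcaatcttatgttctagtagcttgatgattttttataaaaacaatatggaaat
FER3, chr3:20816096-20816165, minus strand: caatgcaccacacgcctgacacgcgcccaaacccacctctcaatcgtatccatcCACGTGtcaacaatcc
FER4, chr2:16833355-16833424, minus strand: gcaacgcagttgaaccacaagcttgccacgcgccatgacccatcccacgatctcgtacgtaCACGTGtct
bHLH38, chr3:21085306-21085375, minus strand: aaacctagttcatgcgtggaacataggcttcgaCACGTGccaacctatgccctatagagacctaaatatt
bHLH39, chr3:21087771-21087840, minus strand: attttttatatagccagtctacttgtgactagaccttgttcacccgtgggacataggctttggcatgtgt
bHLH100, chr2:17199515-17199584, minus strand: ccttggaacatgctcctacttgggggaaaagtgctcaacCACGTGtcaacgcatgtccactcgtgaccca
bHLH101, chr5:1139694-1139763, minus strand: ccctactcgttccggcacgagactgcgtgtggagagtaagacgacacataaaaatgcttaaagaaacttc
BTS, chr3:6273836-6273905, plus strand: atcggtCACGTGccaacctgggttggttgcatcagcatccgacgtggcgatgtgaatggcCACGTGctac
NAS4, chr1:21136705-21136774, plus strand: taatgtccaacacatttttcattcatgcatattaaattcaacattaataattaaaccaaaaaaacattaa
Within 250 bases upstream, 5 of the 9 genes held a G-box, against 6.5% of 27443 protein-coding genes: FER3, FER4, bHLH38 and bHLH100 had 1 each and BTS had 3, of which the stretch shows 2. The element P1BS, the site of PHR1 (GNATATNC, which also reads the same on both strands), was in none of the 9 windows of 250 bases, the one of FER1 included, and in 5.5% of all genes. Bases farther upstream or within the genes were not searched, so a site of PHR1 there would not be seen. A match describes the letters only, and so does the lack of one. bHLH39 and bHLH101, like FER1 and NAS4, held no G-box in these windows. Whether the G-box has a part in the levels given below was not tested.

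The comparison of 17ab with WT asks whether the 9 genes differ between the genotypes without a named stress. FER3, a ferritin gene, was the single member that passed the test, and it was lower in 17ab. All 9 members passed the filter on low counts, 1 of them fell and none rose at an edgeR adjusted p under 0.05, with DESeq2 as well. Over all genes tested 6.51% fell, 7.57% rose and 14.1% passed in either direction, so that 1 of 9 is close to the share of all genes. At an unadjusted p under 0.05 FER3 was again the only member, against 27.5% of all genes tested. The median log2 fold change of the 9 was -0.26, against -0.002 over all 17854 genes tested. The FPKM values (counts scaled by transcript length and by the library total) of 17ab and WT did not overlap for 1 member, FER3, against 31.1% of all genes tested. Most of the other members spread more widely among the 17ab libraries than among those of WT, as the plot of levels shows by library.

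**Figure D1:**
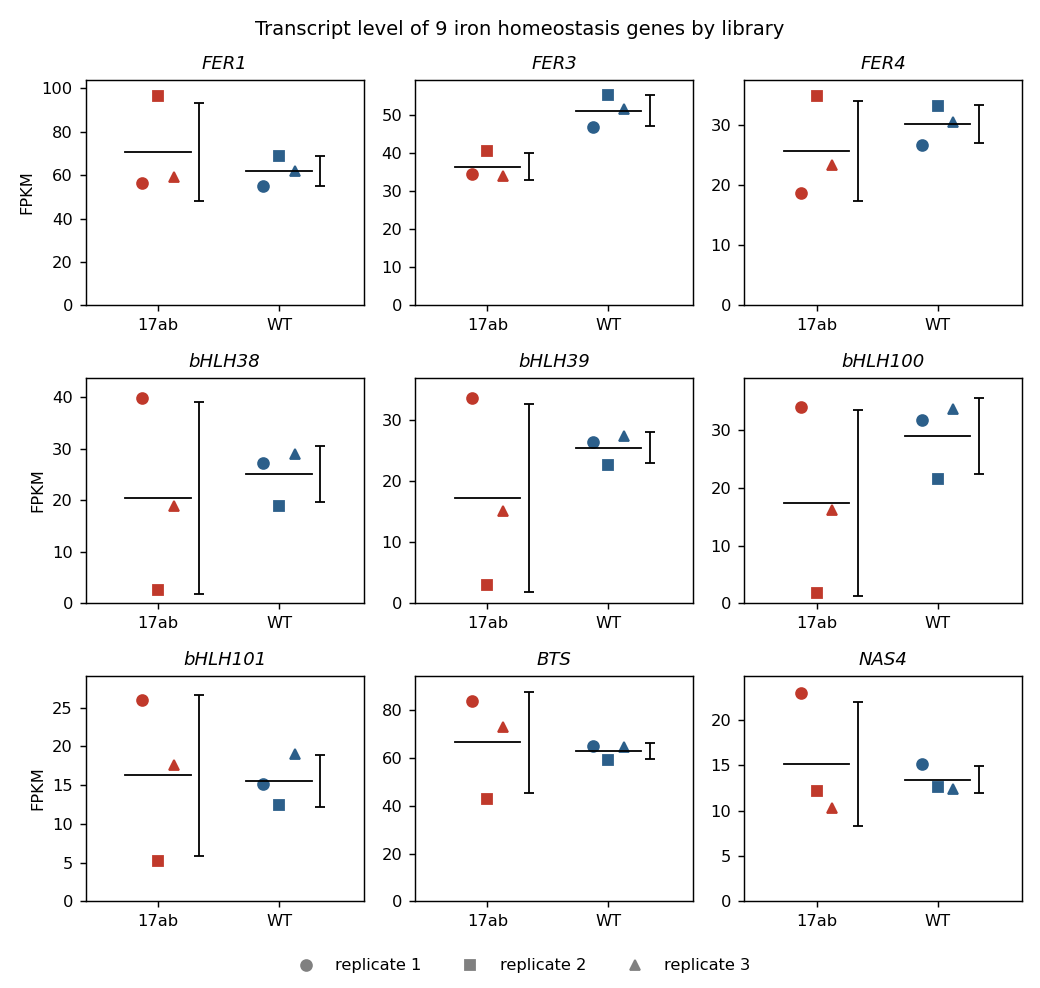
Transcript level (FPKM) of each of the 9 genes in the 3 libraries of 17ab (red) and the 3 of WT (blue), with the marker giving the replicate number, a line at the mean and a bar of ± 1 SD. FER3 lay at 34.05 to 40.38 FPKM in 17ab, below every WT library, while the Ib genes had their lowest level in 17ab replicate 2 and their highest in 17ab replicate 1.

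Of the ferritins, FER3 (AT3G56090, chr3:20813904-20816035 on the minus strand in TAIR10.1) had 34.54, 40.38 and 34.05 FPKM in 17ab replicates 1 to 3, against 46.77, 55.07 and 51.38 FPKM in WT replicates 1 to 3. Every 17ab library lay below every WT library. Its mean was 36.3 ± 3.52 FPKM in 17ab and 51.1 ± 4.16 FPKM in WT (SD, n = 3 each), a log2 change of -0.52 ± 0.09 (SE, edgeR adjusted p = 0.002205). The call held in each of the 6 fits without 1 library, where the log2 fold change lay between -0.61 and -0.47. No reads of FER3 were divided with other genes, and no annotated gene overlaps it.

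FER1 (AT5G01600), the most abundant of the ferritin transcripts per length, had 56.29, 96.46 and 58.88 FPKM in 17ab, against 55.08, 68.56 and 61.74 FPKM in WT. The groups overlapped, and 17ab replicate 2 stood above the other 5 libraries. The log2 fold change was 0.17 ± 0.16 (SE, n = 3 each, edgeR adjusted p = 0.5662), and it was -0.13 without 17ab replicate 2. A noncoding gene annotated on the opposite strand, AT5G01595, covers 1334 of the 2099 bases of FER1. It was listed in none of the libraries. No source used here says whether the counting used strand, and without it reads of overlapping genes on opposite strands cannot be told apart.

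FER4 (AT2G40300), whose protein is known from mitochondria as well as plastids, had 18.65, 34.84 and 23.34 FPKM in 17ab, against 26.74, 33.15 and 30.52 FPKM in WT. As with FER1, 17ab replicate 2 was the highest of the 6 libraries, while 17ab replicates 1 and 3 lay below all of WT. The log2 fold change was -0.26 ± 0.18 (SE, n = 3 each, edgeR adjusted p = 0.3781). Without 17ab replicate 2 FER4 fell as well, by 0.55 ± 0.13 on the log2 scale (SE, edgeR adjusted p = 0.01626). FER4 overlaps its neighbour AT2G40290 over 118 bases on the same strand, and AT2G40290 had 53.41, 45.44 and 51.94 FPKM in 17ab, against 51.26, 59.00 and 55.65 FPKM in WT, with its lowest level where FER4 was highest. FER2, the ferritin known from seeds, was at 0.14 to 0.98 FPKM in 17ab and 0.57 to 1.42 FPKM in WT and was too low to be tested.

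The makeup of the ferritin transcripts was compared by library. FER1 held 51.4%, 56.2% and 50.6% of the summed FPKM of FER1, FER3 and FER4 in 17ab, against 42.8%, 43.7% and 43.0% in WT. FER3 held 31.5%, 23.5% and 29.3% in 17ab, against 36.4%, 35.1% and 35.8% in WT. Neither share overlapped between the genotypes, and both rest on the levels given above. The share of FER4 was 17.0% to 20.3% in 17ab and 20.8% to 21.2% in WT. The summed FPKM of the 3 genes was 109.5, 171.7 and 116.3 in 17ab, against 128.6, 156.8 and 143.6 in WT, so that the total overlapped where the makeup did not.

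Because FER1 is a known target of PHR1, 2 phosphate starvation genes are given beside it. SPX1, a phosphate sensor gene, had 127.82, 60.87 and 51.31 FPKM in 17ab, against 22.23, 25.57 and 21.94 FPKM in WT. PS2, a phosphatase gene, had 47.86, 31.96 and 24.52 FPKM in 17ab, against 5.36, 7.92 and 6.17 FPKM in WT. Both had all 17ab libraries above WT and were highest in 17ab replicate 1, where FER1 was at its lowest 17ab level. SPX1 and PS2 were chosen with earlier results of these data known. The regulator genes showed log2 fold changes of -0.002 ± 0.08 for PHR1 and 0.29 ± 0.15 for its relative PHL1 (SE, n = 3 each, edgeR adjusted p = 0.9919 and 0.2179).

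The 4 Ib factor genes differed more among the 17ab libraries than on average between the genotypes. bHLH38 (AT3G56970) had 39.79, 2.67 and 18.93 FPKM in 17ab, against 27.29, 18.82 and 29.07 FPKM in WT. bHLH39 (AT3G56980), its tandem neighbour, had 33.59, 3.03 and 15.08 FPKM in 17ab, against 26.36, 22.71 and 27.46 FPKM in WT. In both, 17ab replicate 1 was the highest and 17ab replicate 2 the lowest of all 6 libraries.

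bHLH100 (AT2G41240) had 34.04, 1.89 and 16.25 FPKM in 17ab, against 31.76, 21.52 and 33.71 FPKM in WT. bHLH101 (AT5G04150) had 25.95, 5.27 and 17.60 FPKM in 17ab, against 15.09, 12.42 and 19.08 FPKM in WT. The order of the 17ab libraries was the same in all 4 genes, replicate 1, then 3, then 2. The summed FPKM of the 4 genes was 133.4, 12.9 and 67.9 in 17ab, against 100.5, 75.5 and 109.3 in WT.

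None of the 4 passed the test with all 6 libraries. The log2 fold changes were -0.32 ± 0.49 for bHLH38, -0.60 ± 0.44 for bHLH39, -0.81 ± 0.49 for bHLH100 and 0.08 ± 0.36 for bHLH101 (SE, n = 3 each, edgeR adjusted p from 0.3211 to 0.9176). Without 17ab replicate 1, bHLH39 fell by 1.51 ± 0.35 and bHLH100 by 1.75 ± 0.44 on the log2 scale (edgeR adjusted p = 0.01294 and 0.01979). Without 17ab replicate 2, the log2 fold changes of the 4 genes lay between -0.27 for bHLH100 and 0.51 for bHLH101, and that of bHLH38 was 0.20, the other way from the fit with all libraries.

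The library with the low values, 17ab replicate 2, had the highest total of the 6, 6292461. bHLH100 had 11 counts there, with an exact Poisson 95% interval of 5.5 to 19.7 (counting error only), against 208 and 97 counts in 17ab replicates 1 and 3. bHLH38 had 18 counts there, with an interval of 10.7 to 28.4, against 268 and 127. The intervals lie far below the counts of the other 17ab libraries. No reads of the 4 genes were divided with other genes. bHLH38 overlaps PIP5K4 over 386 bases and bHLH101 overlaps GLU1 over 79 bases, both on opposite strands. PIP5K4 had 6.72, 4.11 and 4.59 FPKM in 17ab, against 5.43, 5.48 and 5.60 FPKM in WT, at its highest and lowest in the same libraries as bHLH38. GLU1 had 305 to 339 FPKM in 17ab and 311 to 335 FPKM in WT, with no low value in 17ab replicate 2.

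The range over the 3 libraries of a genotype, in log2 CPM (read counts relative to library size, prior count 2), put the Ib genes at the edge of the transcriptome. In 17ab it was 3.99 for bHLH100, 3.73 for bHLH38, 3.34 for bHLH39 and 2.20 for bHLH101, against 0.73, 0.63, 0.28 and 0.59 in WT. The median range over 13674 genes with a mean of at least 5 FPKM was 0.23 in 17ab and 0.21 in WT. In 17ab 1 of these genes had a wider range than bHLH100, the range of bHLH38 was exceeded by 2 and that of bHLH39 by 3, and that of bHLH101 by 13. In WT 358 to 4609 of them had a wider range than the 4 genes. The rank is a description, since the members were chosen with earlier results of these data known.

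**Figure D2:**
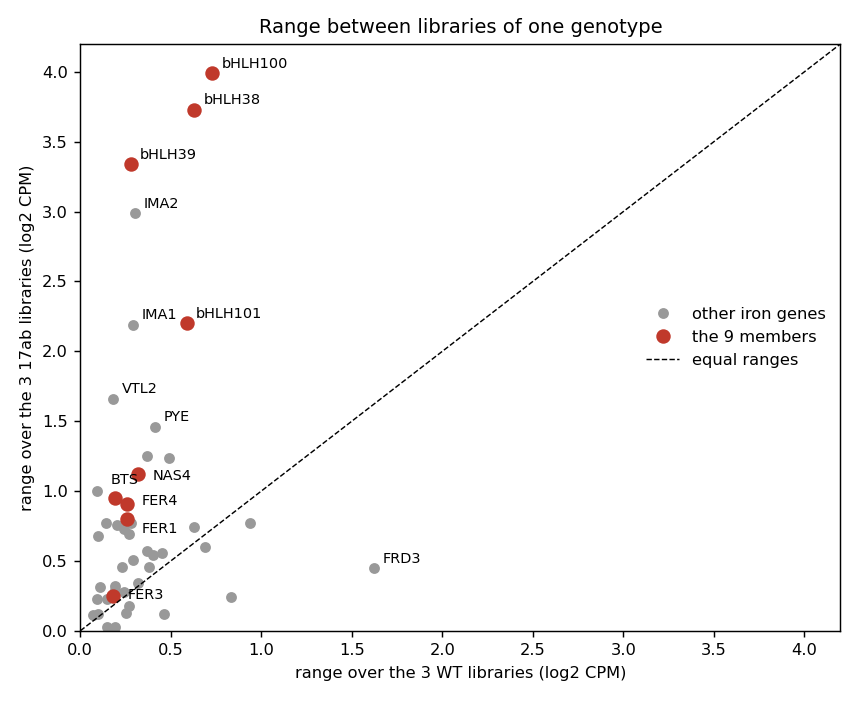
Range of log2 CPM over the 3 17ab libraries (vertical) against the range over the 3 WT libraries (horizontal) for the 9 members (red) and the 38 other tested iron genes (grey), with a dashed line where both are equal. bHLH100, bHLH38, bHLH39 and bHLH101 lie at 2.20 to 3.99 in 17ab and at 0.28 to 0.73 in WT, while FER3 lies at 0.25 in 17ab and 0.18 in WT.

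BTS (AT3G18290) followed the order of the Ib genes at a smaller range. It had 83.86, 42.84 and 72.95 FPKM in 17ab, against 65.05, 59.26 and 64.54 FPKM in WT. The WT libraries lay within the range of 17ab, whose replicate 2 was the lowest of all. The log2 fold change was 0.05 ± 0.17 (SE, n = 3 each, edgeR adjusted p = 0.8892). Without 17ab replicate 2 BTS rose by 0.28 ± 0.08 on the log2 scale (SE, edgeR adjusted p = 0.04476), and without 17ab replicate 1 its log2 fold change was -0.14.

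NAS4 (AT1G56430), an enzyme gene for nicotianamine, which chelates iron for transport within the plant, had 22.96, 12.13 and 10.31 FPKM in 17ab, against 15.10, 12.65 and 12.43 FPKM in WT. It was high in 17ab replicate 1 alone, and the other 17ab libraries lay just below WT. The log2 fold change was 0.15 ± 0.23 (SE, n = 3 each, edgeR adjusted p = 0.7483) with all libraries and -0.28 without 17ab replicate 1.

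**Figure D3:**
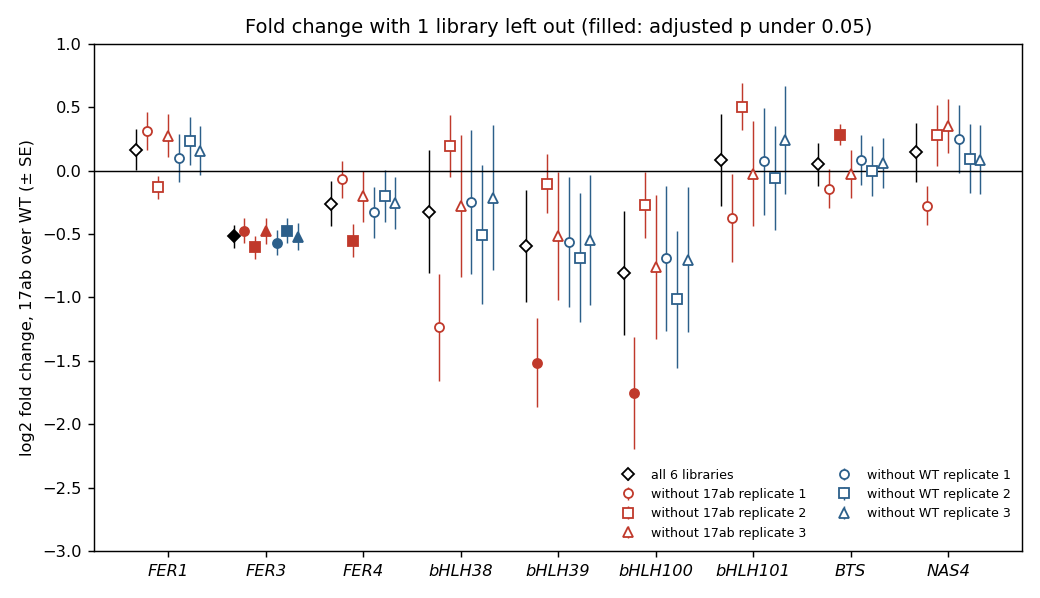
Log2 fold change of 17ab over WT with its SE for each of the 9 genes, with all 6 libraries (black) and with 1 library of 17ab (red) or WT (blue) left out; filled markers have an edgeR adjusted p under 0.05. FER3 is filled throughout, between -0.61 and -0.47, whereas bHLH39 and bHLH100 are filled without 17ab replicate 1, at -1.51 and -1.75, and FER4 and BTS without 17ab replicate 2, at -0.55 and 0.28.

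Across the 6 libraries the lowest summed Ib level and the highest FER1 level fell in the same library, while the highest Ib level and the lowest FER1 level did not. 17ab replicate 2 had the lowest summed Ib level (12.9 FPKM) and the highest FER1 level (96.46 FPKM). 17ab replicate 1 had the highest summed Ib level (133.4 FPKM), with FER1 at 56.29 FPKM, close to the lowest level, 55.08 FPKM in WT replicate 1. FER3 was likewise highest within each genotype in the library with the lowest Ib sum, replicate 2, at 40.38 FPKM in 17ab and 55.07 FPKM in WT, while all 17ab libraries lay below WT.

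**Figure D4:**
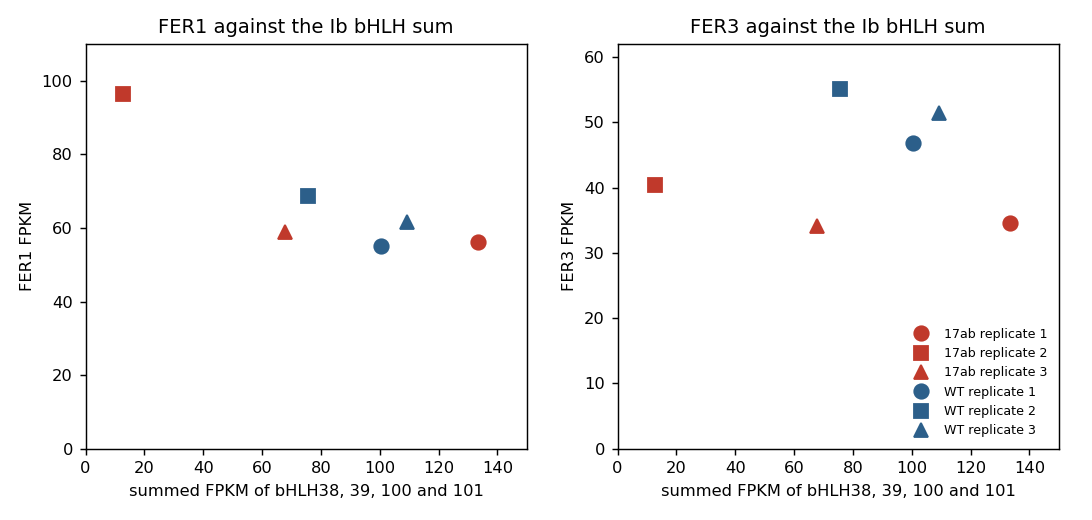
FPKM of FER1 (left) and FER3 (right) against the summed FPKM of bHLH38, bHLH39, bHLH100 and bHLH101, 1 marker per library (17ab red, WT blue). FER1 is highest (96.46) where the Ib sum is lowest (12.9), both in 17ab replicate 2, and FER3 lies lower in every 17ab library than in every WT library.

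The pattern of the Ib genes and BTS recurred in other iron genes. An FPKM level that was highest in 17ab replicate 1 and lowest in 17ab replicate 2 was found in 5 of 9 members, in 9 of 38 other tested iron genes and in 2.80% of all genes tested. The 5 members were the 4 Ib genes and BTS. The 9 others were BTSL1, a relative of BTS, the genes of the IRON MAN peptides IMA1, IMA2 and IMA3, known as inhibitors of BTS, the transcription factor gene PYE, the reductase gene FRO3, the phloem transporter gene OPT3, the vacuolar iron exporter gene NRAMP4 and the nicotianamine transporter gene ZIF1. IMA3 is overlapped over 1211 of its 2898 bases by genes on the opposite strand, of which AT2G30760 had 61.35, 18.52 and 33.37 FPKM in 17ab, against 42.42, 33.05 and 45.75 FPKM in WT, with the same extremes. The reverse, highest in 17ab replicate 2 and lowest in 17ab replicate 1, was found in FER4 alone of the 47 iron genes and in 2.12% of all genes tested. On log2 CPM the first pattern held in 4 members, without bHLH100, in 8 other iron genes, without IMA3, and in 2.51% of all genes tested. The reverse then held in FER1 and FER4 and in 2.45% of all genes tested. These patterns and the second measure were chosen after the values were seen.

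IMA2 had 34.33, 3.89 and 17.18 FPKM in 17ab, against 19.73, 21.90 and 24.98 FPKM in WT, with reads divided with other genes in 5 libraries. PYE had 24.59, 8.65 and 12.11 FPKM in 17ab, against 17.68, 13.74 and 15.19 FPKM in WT. OPT3 had 158.15, 91.92 and 129.28 FPKM in 17ab, against 117.36, 105.60 and 119.95 FPKM in WT. In each, the WT libraries lay within the range of 17ab. None of the 9 passed the test with all 6 libraries. For those fixed by name, the log2 fold changes were -0.07 ± 0.28 for PYE, -0.30 ± 0.36 for IMA1, 0.09 ± 0.15 for FRO3 and 0.12 ± 0.14 for OPT3 (SE, n = 3 each, edgeR adjusted p from 0.6484 to 0.9073). Without 17ab replicate 1 IMA1 fell by 1.00 and PYE by 0.60 on the log2 scale (edgeR adjusted p = 0.03291 and 0.04281). Reads of IMA1 were also divided with other genes in 5 libraries, as were those of its neighbour IMA2. The levels of both genes therefore rest in part on how shared reads were divided. Of the related factors that act above the Ib genes, ILR3 had a range of 0.12 log2 CPM in 17ab and 0.10 in WT, bHLH115 one of 0.11 in 17ab and 0.07 in WT, and bHLH104 one of 0.03 in 17ab and 0.19 in WT. The ranges of bHLH34 and URI were wider in 17ab, at 0.68 and 0.31 log2 CPM, against 0.10 and 0.11 in WT.

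Of the 52 other genes of the iron list 38 were tested, of which 7 rose and none fell, against 7.57% risen and 6.51% fallen among all genes tested. Their median log2 fold change was 0.03, against -0.002 over all genes tested. At an unadjusted p under 0.05 the edgeR test held 13 of the 38, against 27.5% of all genes tested. At that p, 4 of the 38 were lower in 17ab (NAS3, FRO6, FRO7 and IREG1), against 13.4% of all genes tested. With DESeq2 none fell either. The risen genes were 3 of 14 tested genes of transport and storage, 2 of 5 ferric reductases, 1 of 4 genes of uptake and coumarins and 1 of 5 further genes of iron sensing. No gene passed among the other iron transcription factors (8 tested) or the other nicotianamine synthases.

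The transporter genes YSL2 and YSL3, whose proteins carry metal complexes of nicotianamine, rose together. YSL2 had 42.90, 36.04 and 34.75 FPKM in 17ab, against 25.33, 22.26 and 23.46 FPKM in WT, a log2 difference of 0.65 ± 0.09 (SE, n = 3 each, edgeR adjusted p = 0.0005847). YSL3 had 50.59, 68.29 and 65.95 FPKM in 17ab, against 40.14, 36.09 and 39.02 FPKM in WT, which gave 0.65 ± 0.11 as log2 fold change (edgeR adjusted p = 0.001631). Neither followed the Ib order: YSL3 was lowest of 17ab in replicate 1. FRO8, known from mitochondria, had 33.30, 32.94 and 32.44 FPKM in 17ab, against 22.03, 24.81 and 25.03 FPKM in WT, a log2 change of 0.44 ± 0.07 (edgeR adjusted p = 0.001711). The calls of YSL2, YSL3 and FRO8 held in each fit without 1 library.

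The other risen genes were low and are known from roots. PDR9, an exporter of coumarins, which mobilise iron in soil, had 4.04, 2.30 and 3.42 FPKM in 17ab, against 1.64, 1.69 and 0.84 FPKM in WT, a log2 difference of 1.19 ± 0.25 (SE, n = 3 each, edgeR adjusted p = 0.007166) that passed in each fit without 1 library and missed the threshold with limma on log2(FPKM + 0.1) (adjusted p = 0.05545). FRD3, a citrate exporter of the root vasculature, had 4.57, 3.25 and 3.54 FPKM in 17ab, against 2.90, 1.39 and 0.87 FPKM in WT, which gave 1.11 ± 0.33 as log2 fold change (edgeR adjusted p = 0.03958). BTSL2 had 4.66, 3.31 and 4.06 FPKM in 17ab, against 2.52, 2.31 and 3.0 FPKM in WT, a log2 change of 0.59 ± 0.16 (edgeR adjusted p = 0.02819). Within 17ab, PDR9, FRD3 and BTSL2 stood in the order of the Ib genes, while YSL2, YSL3, FRO8 and FRO4 did not.

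FRO4 had 1.08, 1.28 and 1.22 FPKM in 17ab, against 0.69, 0.34 and 0.50 FPKM in WT, a log2 difference of 1.19 ± 0.37 (SE, n = 3 each, edgeR adjusted p = 0.04627), with reads divided in 1 library. Its neighbour FRO5 lay the other way at 0.33, 0.00 and 0.14 FPKM in 17ab, against 0.82, 0.34 and 0.61 FPKM in WT, and was too low to be tested. The call of FRO4 was lost in each fit without 1 library (adjusted p from 0.05738 to 0.1701) and with DESeq2. The call of FRD3 was lost without 17ab replicate 1, 17ab replicate 3, WT replicate 2 or WT replicate 3, and that of BTSL2 without 17ab replicate 1, 17ab replicate 3, WT replicate 1 or WT replicate 2 and with DESeq2 (adjusted p = 0.09336). With limma at either pseudocount the calls of FRD3 (adjusted p = 0.06252 and 0.0734), BTSL2 (0.1076 and 0.1118) and FRO4 (0.1335 and 0.156) were lost.

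**Figure D5:**
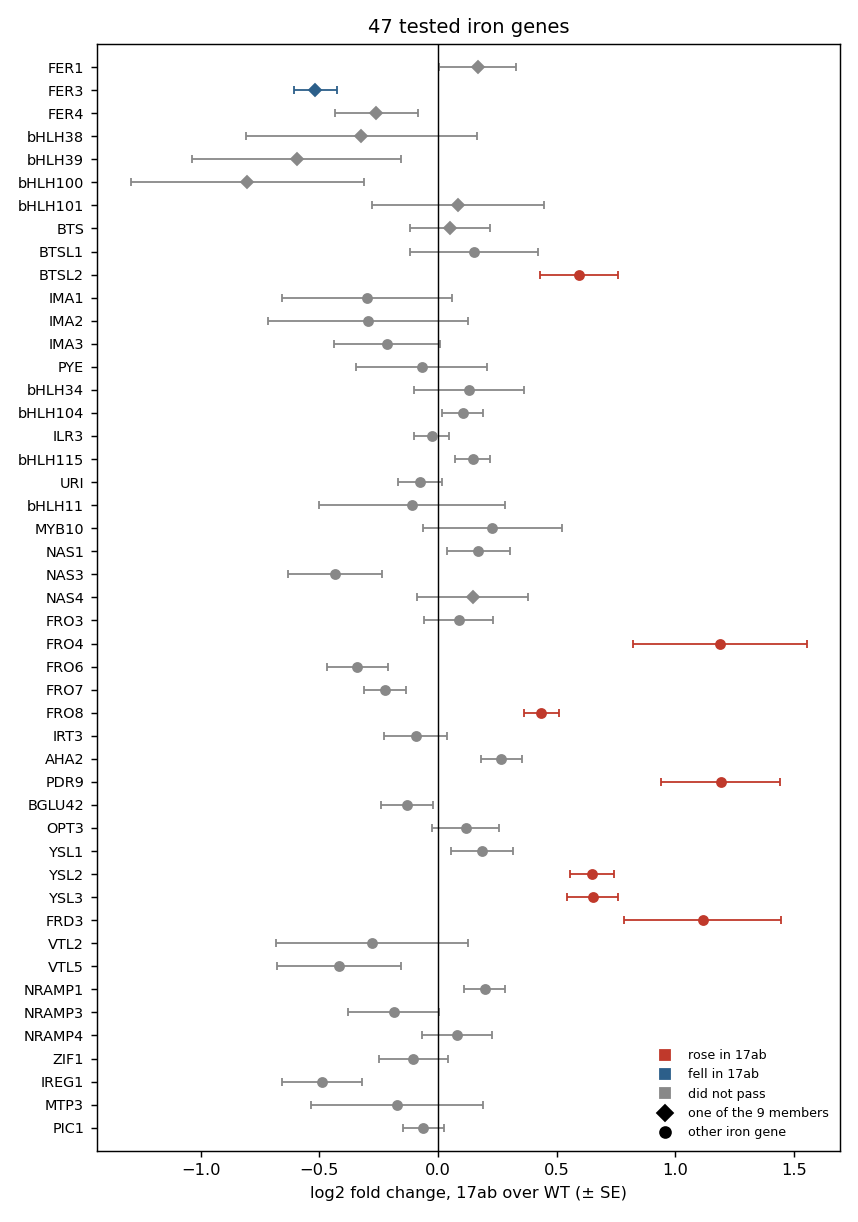
Log2 fold change of 17ab over WT with its SE for the 47 tested iron genes, coloured by the edgeR call (red rose, blue fell, grey did not pass), with diamonds for the 9 members. FER3 is the single fallen gene at -0.52, the 7 risen genes lie between 0.44 and 1.19, and the Ib genes have wide errors of 0.36 to 0.49.

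The root uptake genes were near the limit of detection. FIT had 0.45, 0.46 and 0.30 FPKM in 17ab, against 0.15, 0.00 and 0.16 FPKM in WT, from 9 counts in 17ab and 2 counts in WT. IRT1 had 1.67, 0.62 and 0.84 FPKM in 17ab, against 0.44, 0.42 and 0.00 FPKM in WT, from 20 counts in 17ab and 6 in WT. FRO2 had 1.2, 0.42 and 0.72 FPKM in 17ab, against 0.55, 0.42 and 0.50 FPKM in WT. All 17ab libraries lay above WT for FIT and IRT1, at these few counts, and the groups overlapped for FRO2. Among all genes tested, 31.1% had groups that did not overlap. Of other iron genes too low to be tested, FRO5 had all 17ab libraries below WT, and MYB72 and FER2 overlapped. FIT, IRT1 and FRO2 did not pass edgeR's default filter on low counts. A count of 0, as for FIT and IRT1 in 1 WT library each, allows up to 3 counts, or 0.477 to 0.503 CPM depending on the library.

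Markers of the seedling organs were read beside these values. The 7 root markers summed to 27.1 to 29.1 FPKM in 17ab and 25.3 to 27.3 FPKM in WT, most of it from SCR and SHR, which did not pass the test. The sum therefore follows mainly SCR and SHR and is no measure of how much root RNA a library held. The other 5 (CASP1, CASP2, MYB36, WER and COBL9), set apart after their values were seen, were each at or below 1.44 FPKM in every library, with WER at 0 in 2 libraries and COBL9 at 0 in all WT libraries. They summed to 17, 22 and 26 counts in 17ab, against 10, 20 and 7 counts in WT, and did not move as one. CASP1 and COBL9 were higher in every 17ab library than in WT, and MYB36 and WER overlapped. CASP2 was lower in 17ab, at 0.16, 0.49 and 0.49 FPKM, against 0.66, 1.15 and 0.51 FPKM in WT. The rises of PDR9, FRD3, BTSL2 and FRO4 stand beside these values, and the part of the markers in those rises was not tested. The 6 shoot markers summed to 26970 to 30011 FPKM in 17ab and 28941 to 34086 FPKM in WT, and 1 of them fell, RBCS2B, at -0.30 ± 0.07 on the log2 scale (SE, edgeR adjusted p = 0.008945). Among the 17ab libraries both sums stood in the reverse order of the Ib genes at a far smaller range: replicates 1, 2 and 3 had root sums of 27.1, 29.1 and 27.7 FPKM and shoot sums of 26970, 30011 and 27511 FPKM, beside Ib sums of 133.4, 12.9 and 67.9 FPKM. The 5 low root markers, at 2.5, 3.0 and 4.2 FPKM in 17ab replicates 1 to 3, did not stand in that reverse order. In WT replicates 1 to 3 the root sums were 26.3, 25.3 and 27.3 FPKM, beside Ib sums of 100.5, 75.5 and 109.3 FPKM. These 2 sums stood in the same order in WT. The WT shoot sums were 34086, 28941 and 29659 FPKM, also lowest in replicate 2. Whether organ makeup had a part in the Ib values was not tested.

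By likeness of pattern, taken as Pearson's r of log2 CPM over the 6 libraries among genes with a mean of at least 5 FPKM, the genes nearest to FER1 were RWA4, NKS1, AT3G56210, AT1G68070 and AAPT1 (r from 0.9722 to 0.9927). With 17ab replicate 2 and WT replicate 2 left out, the libraries farthest from the median of FER1, r over the other 4 was 0.64 for NKS1 and 0.97 for RWA4. Their range in 17ab was small, from 0.14 log2 CPM for AAPT1 to 0.41 for AT3G56210, against 0.80 for FER1. The genes nearest to the mean of the 4 Ib genes were AT2G14247, AT5G18500, AT5G26830, AT1G13609 and IMA2 (r from 0.9862 to 0.9953). Of these, AT1G13609, annotated as defensin-like, had 123.08, 14.88 and 65.68 FPKM in 17ab, against 81.92, 61.44 and 77.74 FPKM in WT. AT2G14247, annotated as an uncharacterized protein, had 46.09, 9.68 and 31.25 FPKM in 17ab, against 36.27, 27.69 and 38.79 FPKM in WT. Both shared the order and the wide range of the Ib genes, with ranges of 2.89 and 2.20 log2 CPM in 17ab. AT5G18500 and AT5G26830, at r of 0.9911 and 0.9903, had small ranges of 0.12 and 0.23 log2 CPM in 17ab. Without 17ab replicates 1 and 2, r over the other 4 libraries was 0.90 for AT1G13609, 0.91 for AT2G14247 and 0.69 for IMA2, the lowest of the 5. The values of r are a description of these 6 libraries.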

How the data were processed

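Per the file headers, the authors deposited 1 table per library with a gene length, an expected count (reads shared between genes are divided) and an FPKM value. Per the submitters' processing notes the build was TAIR10, and the tools listed there, with no role, were HTSeq 0.6.0, STAR 2.4.0 and DESeq2. No source used here says which program made the expected counts. Genes missing from a table were taken as 0. Whole numbers made up 91.6% to 92.0% of the listed expected values (tolerance 1e-06).

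Expected counts were rounded, and the quasi-likelihood test of edgeR 4.0.16 (R 4.3.3) was run on genotype, with trimmed mean of M-values normalization, its default filter (17854 genes, 99.78% of counts) and Benjamini-Hochberg adjustment over all genes at 0.05. The SE is the absolute log2 fold change over the square root of F. The test was checked on simulated counts. log2 CPM used a prior count of 2. No pair of the 6 libraries was identical, and all were kept.

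The members and lists were chosen with earlier results of these data known. Named genes are the 9 members, 10 iron and phosphate genes fixed by name (FER2, FIT, PYE, IRT1, FRO2, FRO3, OPT3, IMA1, PHR1 and PHL1), every other iron gene past the threshold and the 5 genes most like FER1 and most like the Ib mean. Further genes are named as examples, chosen after their values were seen. 1 root marker of the list is not reported here and is in none of the sums.

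Of 23022 identifiers 99.2% matched RefSeq's TAIR10.1, and all 12586 matched genes with 1 transcript had the deposited length. Upstream sequence was read from TAIR10.1 by its own annotation, and its coordinates are of that build. Alternatives were DESeq2 size factors, other filters, each library left out, a block of replicate numbers, DESeq2 1.42.0 and limma 3.58.1, trend setting, at pseudocounts of 1 and 0.1 on log2 FPKM (genes reaching 1 FPKM in 3 or more libraries). Intervals and floors cover counting error only.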

Additional observations from a re-analysis of the deposited data

How the results depend on the processing

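FER3 kept its direction and its call under every alternative run. With 1 library left out, the log2 fold change ran from -0.13 to 0.31 for FER1, -0.551 to -0.069 for FER4, -1.23 to 0.20 for bHLH38, -1.51 to -0.10 for bHLH39, -1.75 to -0.27 for bHLH100, -0.37 to 0.51 for bHLH101, -0.14 to 0.28 for BTS and -0.28 to 0.35 for NAS4. These fits had 1 to 3 fallen and 0 to 1 risen members, 0 to 2 fallen and 4 to 7 risen other iron genes, and 643 to 953 fallen and 889 to 1137 risen genes over all. The log2 fold change of bHLH101 was -0.16 with limma on log2(FPKM + 1) and -0.19 on log2(FPKM + 0.1). Those fits called 4 and 3 risen other iron genes and 770 and 726 fallen genes over all, and DESeq2 called 728 fallen and 876 risen genes, against 1163 and 1352 with edgeR. On log2 CPM in place of FPKM, added after seeing the data, 2 members in place of 1 were highest in 17ab replicate 2 and lowest in 17ab replicate 1. The cause was not tested. DESeq2 gave wider errors for the Ib genes, such as 1.00 for bHLH100 against 0.49 with edgeR.

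Over genes with a mean of at least 5 FPKM, deviations from the genotype means correlated at 0.007, -0.138 and -0.053 for equal numbers 1 to 3. For unlike numbers the correlations ran from -0.087 to 0.139. Such values over many genes cannot exclude a pairing that touches few genes. In both genotypes replicate 2 had the lowest FPKM of the 4 Ib genes and BTS and the highest of FER1, FER3 and FER4. Whether equal numbers belong together was not tested for these genes. With the replicate number as a block, 1048 genes rose and 805 fell, the log2 fold change of FER3 was -0.52, that of bHLH101 was -0.017, no member changed its call, and FRO4 lost its call (edgeR adjusted p = 0.08575). Depth limits the genes at few counts, such as FRO4 at 5 to 19 counts per library and the Ib genes at 11 to 29 counts in 17ab replicate 2.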
